A study of Mus musculus with 20 samples.

Results

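9 genes of the TREM2 signalling axis and of the sialic acid receptors of microglia are described here: *Trem2*, *Tyrobp*, *Syk*, *Plcg2*, *Inpp5d*, *Cd33*, *Siglech*, *Siglece* and *Siglec1*. They were chosen by symbol for their known roles. No measured value entered the rule, but earlier results of these data were known when it was made. All 9 were found among the 39017 genes of the count table. The libraries come from microglia and astrocytes sorted from the forebrain on the injured side of adult male C57BL/6J mice aged 3 to 4 months, 7 days after the injury or its sham. All mice had a craniectomy on the day before. Sham mice were connected to the injury device without a pulse, and FPI mice received lateral fluid percussion injury, a pressure pulse onto the exposed dura. Microglia were gated as CD11b+ cells with intermediate CD45 and astrocytes by ACSA-2. There were 5 libraries of each cell type in each condition, 20 in all, each from 1 animal without pooling.

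TREM2 is a receptor of microglia for lipids and lipoproteins that has no signalling tail of its own. It pairs with the adaptor encoded by *Tyrobp* (DAP12), whose immunoreceptor tyrosine-based activation motif (ITAM) recruits the kinase SYK, which in turn activates phospholipase C gamma and other enzymes, while the phosphatase SHIP1 (*Inpp5d*) removes a lipid messenger of this pathway. Siglecs are receptors for sialic acid on glycoproteins and glycolipids, and many carry an inhibitory motif (ITIM) that recruits phosphatases. The word inhibitory fits only some of the 4 Siglecs by their known structure: Siglec-E carries ITIMs, Siglec-H and mouse CD33 lack a classical one and pair with DAP12, and Siglec-1 (CD169), an adhesion receptor of macrophages that interferon induces, has no such motif. They are therefore called sialic acid receptors here.

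The depth, as the total count on genes per library, had a median of 8188128 in sham microglia (lowest 5623349, highest 13110857) and of 8054415 in FPI microglia (lowest 6890710, highest 8396868). Sham astrocyte libraries had a median total of 9300923 (lowest 7998479, highest 10917112) and FPI astrocyte libraries of 7878739 (lowest 6470553, highest 10194999). Levels are in CPM, the counts of a gene relative to a library size that TMM, edgeR's normalization, set over all 20 libraries. The cell type labels were checked against marker genes. The summed level of 10 microglial markers was 25700 ± 1920 CPM (SD, n = 5) in sham microglia and 134 ± 31.0 in sham astrocytes, and that of 8 astrocyte markers was 304 ± 47.9 in sham microglia and 20900 ± 8140 in sham astrocytes. FPI astrocyte library 5 has a name that ends like a microglia library's and repeats the animal number of library 2 of its group, but its summed microglial markers, at 218 CPM, were those of an astrocyte library. By their names the microglia libraries fall into 2 series, replicates 1 to 3 and replicates 4 and 5 of each condition, called the first and the second name series below. Also by name, 3 animals are the source of both a microglia and an astrocyte library.

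The 9 genes lie on 6 chromosomes of GRCm38. *Trem2* (ENSMUSG00000023992) is on chromosome 17 from 48346401 to 48354147, and *Tyrobp* (ENSMUSG00000030579) on chromosome 7 from 30413760 to 30417585. *Syk* (ENSMUSG00000021457) is on chromosome 13 from 52583173 to 52648792, *Plcg2* (ENSMUSG00000034330) on chromosome 8 from 117498291 to 117635142, and *Inpp5d* (ENSMUSG00000026288) on chromosome 1 from 87620312 to 87720507. Among the sialic acid receptors, 3 are also on chromosome 7: *Cd33* (ENSMUSG00000004609) from 43524216 to 43544428, *Siglece* (ENSMUSG00000030474) from 43651070 to 43660161 and *Siglech* (ENSMUSG00000051504) from 55768178 to 55778925. *Siglec1* (ENSMUSG00000027322) is apart from them on chromosome 2, from 131069220 to 131086765.

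All 9 genes were high in one cell type, so the bases before their start sites were searched for the letters of PU.1, a transcription factor of myeloid cells, and of the interferon-stimulated response element. The RefSeq promoter sequences (GRCm38.p6) held an entry for 7 of the 9 members, without *Tyrobp* and *Siglec1*. Within the 250 bases before the start, the PU.1 letters GAGGAAG, on either strand, were found in 4 of the 8 windows of these members (*Syk* has 2), each of a different member, against 10.6% of all 32851 windows of that length. The interferon element was searched as GAAA, 2 bases of any kind and GAAA, on either strand, and was found in 0 of the 8, against 2.98% of all windows, which says only that these letters are not in those windows. A match is a run of letters and not a measured binding site. The 4 windows with a PU.1 match are printed with the match in capitals, where CTTCCTC is the match on the opposite strand: *Trem2* at chr17:48346151-48346400 (plus strand), *Inpp5d* at chr1:87620062-87620311 (plus strand), *Cd33* at chr7:43533172-43533421 (minus strand, before a RefSeq start that lies inside the gene as GENCODE annotates it) and *Siglece* at chr7:43660162-43660411 (minus strand), which has 2.
Trem2: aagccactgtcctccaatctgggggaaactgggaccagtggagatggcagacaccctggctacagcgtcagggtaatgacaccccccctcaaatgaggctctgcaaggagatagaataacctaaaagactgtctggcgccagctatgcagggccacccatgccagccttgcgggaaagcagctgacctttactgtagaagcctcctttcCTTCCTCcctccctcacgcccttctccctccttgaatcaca
Inpp5d: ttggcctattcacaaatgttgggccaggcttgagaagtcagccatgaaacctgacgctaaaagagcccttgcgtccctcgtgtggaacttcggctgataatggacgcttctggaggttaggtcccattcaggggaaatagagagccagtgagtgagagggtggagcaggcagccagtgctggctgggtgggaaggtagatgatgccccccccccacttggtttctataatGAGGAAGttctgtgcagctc
Cd33: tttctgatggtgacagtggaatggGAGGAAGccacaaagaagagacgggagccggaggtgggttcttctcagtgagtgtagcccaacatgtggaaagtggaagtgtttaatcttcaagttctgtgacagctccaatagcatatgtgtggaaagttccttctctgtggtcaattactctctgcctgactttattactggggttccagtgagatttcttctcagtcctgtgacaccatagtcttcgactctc
Siglece: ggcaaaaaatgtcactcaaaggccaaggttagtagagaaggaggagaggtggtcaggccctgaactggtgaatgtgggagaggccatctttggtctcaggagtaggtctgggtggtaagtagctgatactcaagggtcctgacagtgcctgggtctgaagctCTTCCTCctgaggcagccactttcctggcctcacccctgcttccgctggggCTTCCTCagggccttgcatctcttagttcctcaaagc

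In sham microglia the adaptor and one sialic acid receptor stood highest per length, and *Siglec1* lowest. Divided by the length of all exons of the gene joined, in kilobases, the level was 283 ± 30.2 CPM per kilobase (SD, n = 5) for *Tyrobp* and 264 ± 26.2 for *Siglech*, which did not differ beyond their spread. *Inpp5d* followed at 172 ± 13.5 CPM per kilobase, then *Trem2* at 92.5 ± 5.68 and *Plcg2* at 86.6 ± 4.31, again within their spread of each other. The lower levels per kilobase were 43.4 ± 5.19 for *Cd33*, 33.4 ± 3.85 for *Syk* and 32.4 ± 6.9 for *Siglece*, the last 2 not apart, and 2.1 ± 1.63 for *Siglec1*. The place of *Trem2* depends on its annotated length, 4946 bases with all exons and 1088 in the longest coding transcript. With the latter, an alternative added after the data had been seen, it came first at 421 ± 25.8 CPM per kilobase. *Siglech* followed at 388 ± 38.5, within their spread of each other, then *Tyrobp* at 317 ± 33.7, while *Siglec1* stayed last at 2.35 ± 1.82. In FPI microglia the order per kilobase of all exons was the same, from 353 ± 59.1 for *Tyrobp* to 6.91 ± 3.15 for *Siglec1*. With the longest coding transcript *Trem2* was again first there, at 431 ± 63.5. *Tyrobp*, at 395 ± 66.0, then came before *Siglech*, at 318 ± 21.9.

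**Figure D1:**
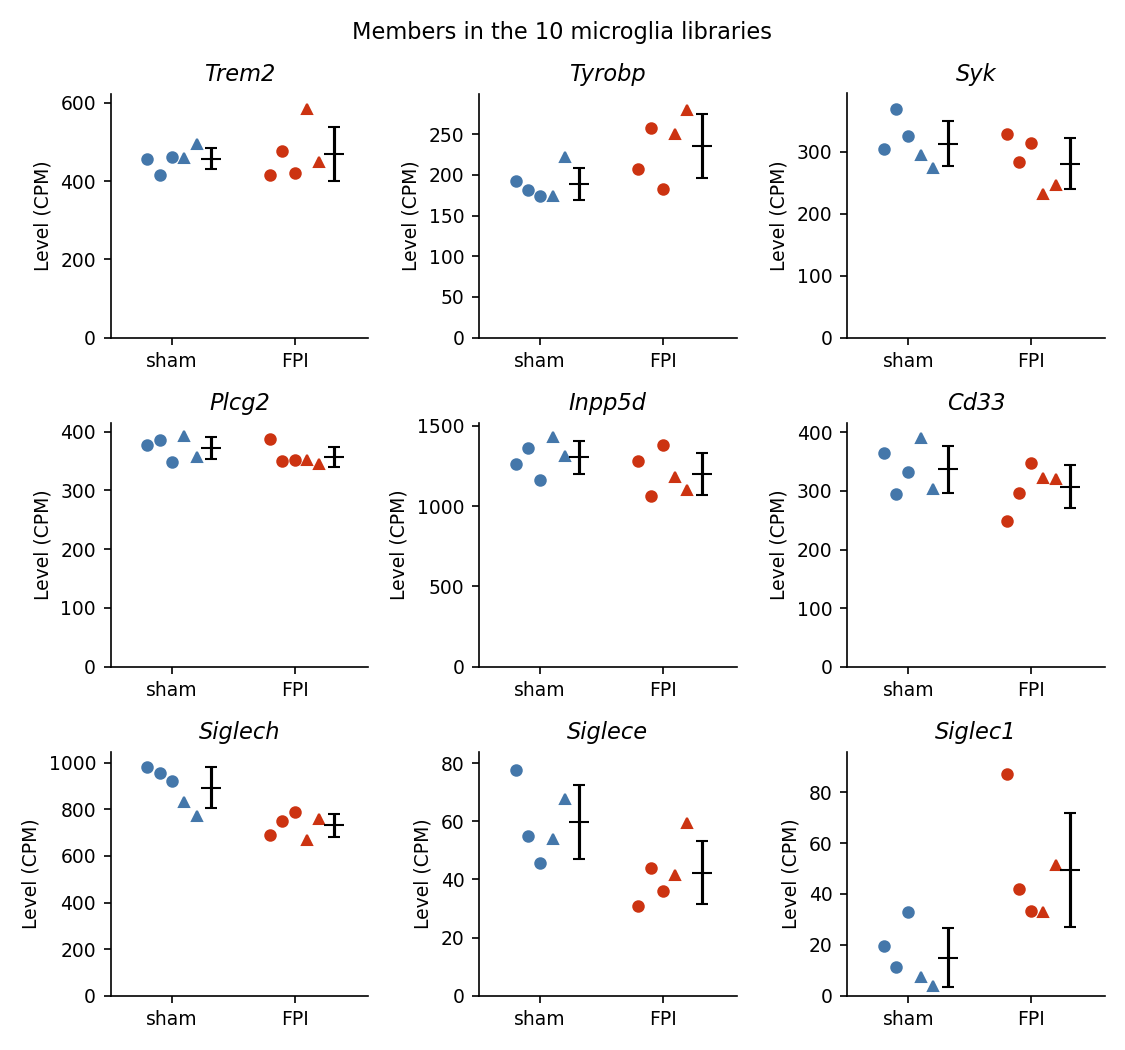
Level of each of the 9 members in CPM (vertical axes from 0) in the 10 microglia libraries, sham in blue and FPI in red, with circles for the first and triangles for the second name series, and bars for mean and SD of each group. FPI libraries of Siglec1 lie at 32.8 to 87.2 CPM against 3.79 to 33.0 in sham, and the groups of the other 8 genes overlap as well.

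The comparison of FPI with sham microglia asks which of these genes changed after injury. A gene was called where edgeR's adjusted p was below 0.1 and its log2 fold change was beyond 0.6 in either direction, the study's own thresholds. Of the 9 members, 1 was called, *Siglec1*, which was higher after FPI. Over all 12143 genes tested 285 were called (2.35%), 259 of them higher (2.13%) and 26 lower (0.214%). The 8 members not called had log2 fold changes between -0.48 and 0.34, and 3 of them, *Tyrobp*, *Siglech* and *Siglece*, had an unadjusted p below 0.05, as did 1377 genes in all. In none of the 9 did all 5 FPI libraries lie above all 5 sham libraries, as in 2.17% of the genes tested, or all below, as in 1.27%. The median log2 fold change was 0.003 over *Trem2*, *Tyrobp*, *Syk* and *Plcg2* and -0.198 over the 4 sialic acid receptors, beside -0.009 over all genes tested. These are bulk libraries of sorted cells, in which fewer cells of a type and less RNA per cell cannot be told apart.

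**Figure D2:**
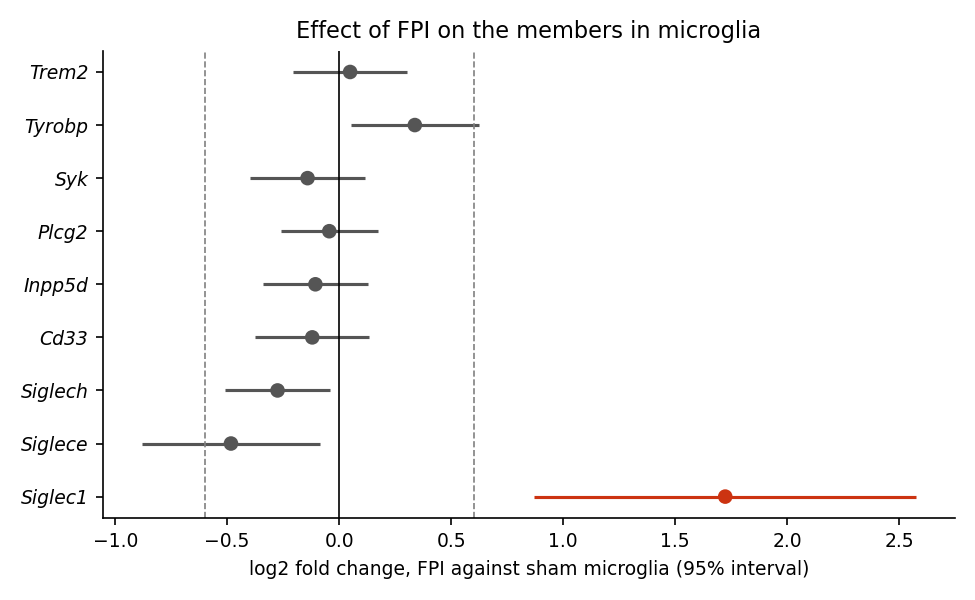
Log2 fold change of FPI against sham microglia for the 9 members (points, horizontal axis) with 95% intervals from edgeR (n = 5 libraries a group), in red where called, and dashed lines at the log2 threshold of 0.6 in either direction. Siglec1 stands at 1.72 and the other 8 between -0.48 and 0.34.

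*Trem2*, the lipid receptor, had a mean in FPI mice, 469 ± 69.1 CPM (SD, n = 5), inside the range of the sham libraries. It stood at 457, 416, 461, 460 and 495 CPM in sham libraries 1 to 5, and at 416, 476, 421, 585 and 448 CPM in FPI libraries 1 to 5. FPI library 4 was the highest of the 10, above all sham libraries, and the other 4 FPI libraries lay inside the sham range. The log2 fold change was 0.05 (SE 0.121, 95% interval -0.204 to 0.303, adjusted p = 0.946, edgeR), so the interval reaches at most a 1.23-fold rise. Without FPI library 4 the log2 fold change was -0.05, and in the first name series alone it was -0.04, both on the other side of 0.

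*Tyrobp*, the gene of the ITAM adaptor DAP12, stood at 192, 181, 174, 174 and 222 CPM in sham libraries 1 to 5 and at 207, 258, 183, 250 and 280 CPM in FPI libraries 1 to 5. FPI libraries 2, 4 and 5 were above all sham libraries, and FPI libraries 1 and 3 lay among them. The log2 fold change was 0.34 (SE 0.137, 95% interval 0.052 to 0.624) with an adjusted p = 0.308 (edgeR) and did not pass. Over 21 alternatives it ran from 0.23 to 0.47, higher in FPI each time, and was called in 0. The adjusted p ran from 0.0739 (edgeR, 1 library left out) to 0.877 over them, and the log2 fold change stayed below 0.6.

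None of the 3 enzymes downstream was called with edgeR or with DESeq2 or had an unadjusted p below 0.05. *Syk*, the kinase recruited by the ITAM, ranged from 273 to 368 CPM in sham and from 232 to 328 CPM in FPI microglia, with a log2 fold change of -0.14 (95% interval -0.398 to 0.115, adjusted p = 0.774, edgeR). *Plcg2*, the phospholipase, varied least of the 9 among sham libraries, with a coefficient of variation of 4.98%, and stood at 349 to 393 CPM in sham and 344 to 388 CPM in FPI libraries. Its log2 fold change was -0.04 (95% interval -0.261 to 0.173, adjusted p = 0.942, edgeR). *Inpp5d*, the phosphatase that works against this signal, ranged from 1160 to 1430 CPM in sham and from 1060 to 1380 CPM in FPI libraries, with a log2 fold change of -0.11 (95% interval -0.342 to 0.13, adjusted p = 0.833, edgeR). The sham and FPI libraries of all 3 overlapped, and their intervals allow a fall to 0.759 of the sham level at the most for *Syk*, 0.834 for *Plcg2* and 0.789 for *Inpp5d*.

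Of the sialic acid receptors, *Cd33* ranged from 295 to 390 CPM in sham and from 249 to 348 CPM in FPI microglia, with a log2 fold change of -0.12 (95% interval -0.375 to 0.134, adjusted p = 0.819, edgeR). *Siglech*, a receptor used as a marker of microglia and of plasmacytoid dendritic cells, stood at 983, 957, 920, 831 and 773 CPM in sham libraries 1 to 5 and at 690, 750, 790, 669 and 758 CPM in FPI libraries 1 to 5. FPI library 3 lay above sham library 5, and the other 4 FPI libraries were below all sham libraries. The log2 fold change was -0.28 (SE 0.112, 95% interval -0.51 to -0.04, adjusted p = 0.314, edgeR), which passed neither threshold. The 10 microglial markers had 0 called with edgeR and 0 with DESeq2 and 4 lower at an unadjusted p below 0.05, and their median log2 fold change was -0.196. Of 9 markers of plasmacytoid dendritic cells, *Klk1* and *Ly6d* were at 0 in all 10 microglia libraries, and *Irf8*, the most abundant, made up most of their sum of 653 ± 39.4 CPM in sham and 732 ± 35.6 in FPI libraries (SD, n = 5). The 4 tested were all higher, and *Bst2*, which is also among the interferon reporters used below, was called with edgeR (log2 fold change 1.54, adjusted p = 0.00118) and with DESeq2. The gate took CD11b+ cells with intermediate CD45, and the part of plasmacytoid dendritic cells in the level of *Siglech* was not tested.

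*Siglece*, the member whose receptor carries ITIMs, stood at 77.7, 54.8, 45.5, 53.9 and 67.8 CPM in sham libraries 1 to 5. In FPI libraries 1 to 5 it stood at 31.0, 43.9, 36.1, 41.4 and 59.4 CPM. FPI library 5 lay within the sham range, and the other 4 were below all sham libraries. The log2 fold change was -0.48 (SE 0.191, 95% interval -0.882 to -0.084, adjusted p = 0.286, edgeR), and *Siglece* was not called. Without FPI library 5 it was called, with a log2 fold change of -0.66 (adjusted p = 0.0669, edgeR), the 1 of 21 alternatives that did so, with adjusted p from 0.0669 to 0.798 over them.

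*Siglec1* is the member that was called. It stood at 19.5, 11.1, 33.0, 7.49 and 3.79 CPM in sham libraries 1 to 5 and at 87.2, 42.1, 33.1, 32.8 and 51.5 CPM in FPI libraries 1 to 5. FPI libraries 1, 2, 3 and 5 were above all sham libraries, and FPI library 4, at 32.8, lay just under sham library 3, at 33.0, so the groups overlapped by that pair. The mean of 5 libraries rose from 15.0 ± 11.6 to 49.3 ± 22.5 CPM (SD), a 3.3-fold change (95% interval 1.83 to 5.96). The log2 fold change was 1.72 (SE 0.407, adjusted p = 0.0299, edgeR), which ranked 178 of the 12143 genes by p. Among sham libraries it varied most of the 9 members, with a coefficient of variation of 77.7%.

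The call of *Siglec1* held in 17 of 21 alternatives, with adjusted p from 9.11e-07 to 0.315 over them, and the direction in 21. It was lost with robust empirical Bayes (adjusted p = 0.2, edgeR) and when all 20 libraries shared 1 spread (adjusted p = 0.315, edgeR). It was also lost without sham library 2 (log2 fold change 1.61, adjusted p = 0.107, edgeR) and without FPI library 1 (log2 fold change 1.40, adjusted p = 0.101, edgeR). Within the first name series the log2 fold change was 1.35 (adjusted p = 0.0825, edgeR), and within the second it was 2.92 (adjusted p = 0.00219, edgeR). With a term for the series it was 1.92 (adjusted p = 0.00359, edgeR).

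Macrophages of the brain borders also express *Siglec1*, so their markers were set beside it. The summed level of 8 border macrophage markers was 472, 308, 458, 25.0 and 18.4 CPM in sham libraries 1 to 5 and 275, 200, 147, 25.1 and 59.7 CPM in FPI libraries 1 to 5. The first name series was thus above the second in both conditions, and no FPI library exceeded the highest sham library. *Mrc1* was the most abundant, at 11.2 to 270 CPM in sham and 18.9 to 186 CPM in FPI microglia, and *Cd163* stood at 30.7 ± 27.7 CPM in sham and 12.2 ± 10.2 CPM in FPI libraries (SD, n = 5). *Cbr2*, *Cd209f* and *Ms4a7* were at 0 in sham library 5, *Ms4a7* and *Pf4* in sham library 4, and *Cd209f* in FPI libraries 1, 4 and 5, with *Lyve1* at 0 in FPI library 4 and *Pf4* in FPI library 5. Of the 8 markers 7 were tested, 0 were called with edgeR or with DESeq2, 1 was lower at an unadjusted p below 0.05, and their median log2 fold change was -0.732, with *Ms4a7* at 0.43. In the second name series both FPI sums, 25.1 and 59.7 CPM, were above both sham sums. In sham mice libraries 1 to 3 were above libraries 4 and 5 both in this sum and in *Siglec1*, and the part of these cells in the levels and in the rise of *Siglec1* was not tested. The summed level of 7 monocyte markers was 24.0, 32.8, 49.4, 33.0 and 22.9 CPM in sham libraries 1 to 5 and 149, 185, 56.4, 33.7 and 60.7 CPM in FPI libraries 1 to 5, where *Fn1* was the most abundant and *Ly6c2* was at 0 in all 10. FPI library 4 lay among the sham libraries and the other 4 were above them. Of the 3 monocyte markers tested, *Fn1* was called higher with edgeR (log2 fold change 1.84, adjusted p = 0.00959) and with DESeq2, and *Ccr2* (0.29) and *Vcan* (0.35) were not called. The level of *Fn1* in astrocytes was 337% of the microglial level in sham and 134% in FPI mice. That of *Vcan* was 1450% and 1780%. The part of monocytes in the rise of *Siglec1* was not tested.

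*Siglec1* is induced by interferon, and 10 interferon reporter genes were summed in the same way. The sum was 68.4, 48.8, 73.6, 85.0 and 63.1 CPM in sham libraries 1 to 5 and 428, 368, 241, 249 and 487 CPM in FPI libraries 1 to 5. All FPI libraries were above all sham libraries. FPI libraries 3 and 4 were the lowest of their group both here and for *Siglec1*, but the highest were library 5 here and library 1 for *Siglec1*, and sham library 4, the highest sham library here, held only 7.49 CPM of *Siglec1*. All 10 genes were called higher, with a median log2 fold change of 2.57, and DESeq2 called 9 of them, all higher. Among them *Oasl2* rose by 3.00, *Irf7* by 2.85, *Usp18* by 2.47 and *Ifit3* by 2.46 on the log2 scale. The study named several of these genes from these same libraries, so the list is not independent evidence of its direction. The summed mitochondrial counts, a measure of RNA quality, were also higher in FPI microglia, at 69900 ± 8420 CPM against 49000 ± 5500 (SD, n = 5), with no overlap between groups. The part of either in the change of *Siglec1* was not tested.

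**Figure D3:**
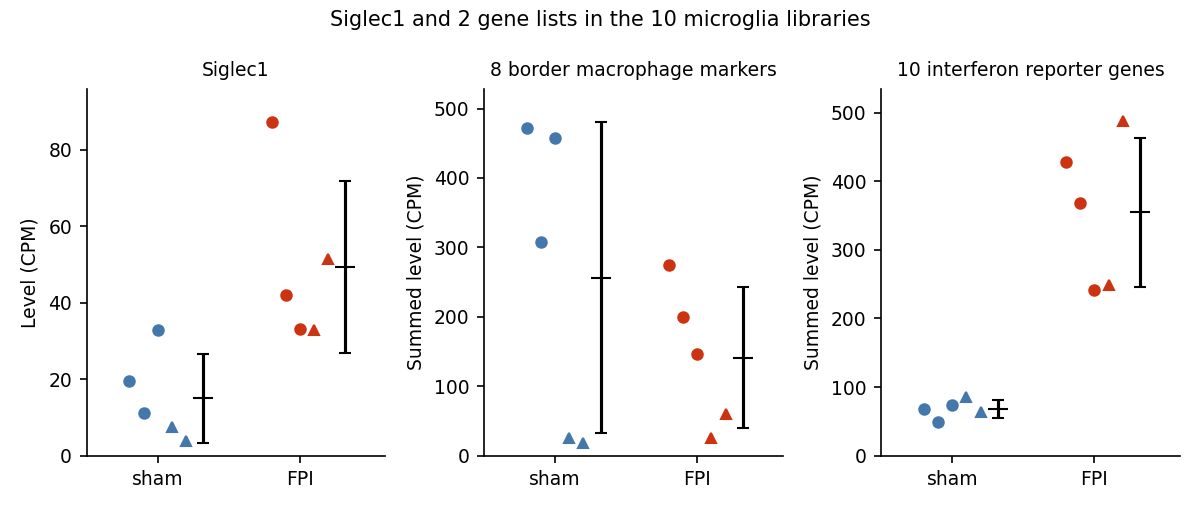
Level of Siglec1, summed level of 8 border macrophage markers and summed level of 10 interferon reporter genes, all in CPM from 0, in the 10 microglia libraries, with circles for the first and triangles for the second name series and bars for mean and SD. Border macrophage markers split by name series, with 147 to 472 CPM in the first and 18.4 to 59.7 in the second, while the interferon genes split by condition.

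The contrast of microglia with astrocytes places the members in their cell type. Averaged over sham and FPI, all 9 were called higher in microglia, as were 4079 of the 15077 genes tested. In either direction 64.2% of these genes were called. The log2 fold changes were 9.82 for *Trem2*, 8.34 for *Tyrobp*, 7.91 for *Syk*, 6.26 for *Plcg2* and 8.79 for *Inpp5d*. Those of the sialic acid receptors were 10.61 for *Cd33*, 10.64 for *Siglech*, 11.10 for *Siglece* and 7.11 for *Siglec1*, which had the largest adjusted p of the 9 at 1.52e-07 (edgeR). Averaged in this way *Plcg2* and *Siglec1* had the smallest differences, with 95% intervals of 5.729 to 6.781 and 5.518 to 8.71 that overlap. In FPI mice alone the ratio of pooled levels was 63.6 for *Plcg2* and 18.4 for *Siglec1*. Without FPI astrocyte library 1 the astrocyte share of the microglial level fell from 1.57% to 1.04% for *Plcg2*. For *Siglec1* it fell from 5.44% to 2.77%. Each of the 9 was called in every alternative that was run. All but *Syk*, *Plcg2* and *Inpp5d* entered the fit only through microglia, so their calls are a description.

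In sham astrocytes the members had few counts. The 5 libraries together held 6 counts of *Trem2*, 18 of *Tyrobp*, 39 of *Syk*, 195 of *Plcg2* and 110 of *Inpp5d*. Of the sialic acid receptors they held 2 counts of *Cd33*, 20 of *Siglech*, 1 of *Siglece* and 0 of *Siglec1*. As a share of the microglial level this was 0.0129% for *Cd33*, the lowest with a ratio, and 1.13% for *Plcg2*, the highest. The share of *Cd33* has a 95% counting interval of 0.00157% to 0.0467%, which overlaps those of *Trem2*, *Siglech* and *Siglece*. With 3 counts over the group taken as a floor in place of 0, *Siglec1* was 238-fold higher in sham microglia (95% lower counting limit 193). *Siglece* was 2700-fold higher there (95% counting interval 484 to 107000). Counting intervals and floors cover counting error only.

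In astrocytes no member passed a test of FPI against sham, and the libraries of the groups overlapped for all 9. Only *Syk*, *Plcg2* and *Inpp5d* passed the filter on low counts there, and of these 3 edgeR called 0 and DESeq2 called 0, with *Syk* at an unadjusted p below 0.05, beside 0.00728% of the 13741 genes called. The pooled counts of 5 libraries a group are therefore given as a description. Sham astrocyte libraries 1 to 5 held 2, 0, 4, 0 and 0 counts of *Trem2* and FPI libraries 1 to 5 held 7, 36, 0, 10 and 18, a ratio of 13.5 after scaling (95% counting interval 5.91 to 38.1). About as many counts came from FPI library 2 as from the others together, and the ratio was 8.3 without that library and 32.1 without sham library 3. *Cd33* went from 2 counts, both in sham library 4, to 8, 4, 1, 6 and 10 in FPI libraries 1 to 5, a ratio of 16.6 (95% counting interval 4.19 to 143). It was found in each FPI library and, without sham library 4 and with 3 counts taken as the floor, was 8.71-fold higher. *Siglec1* had 0 counts in all sham libraries and 68, 16, 0, 8 and 19 in FPI libraries 1 to 5. With the same floor it was 42.3-fold higher, and the 95% lower counting limit was 33.8. The value with the floor was 31.8 without sham library 2. It was 21.5 without FPI library 1, which held most of the counts. FPI library 3 was lowest for *Trem2*, *Cd33* and *Siglec1*. *Siglece* had 0 counts in FPI astrocytes, and the other members had ratios from 1.31 for *Siglech* (95% counting interval 0.69 to 2.52) to 2.54 for *Tyrobp* (95% counting interval 1.42 to 4.7). Without FPI library 5 that of *Tyrobp* was 1.5, and without FPI library 1 that of *Plcg2* turned from 1.34 to 0.886. These values with 1 library left out were chosen once the data were known.

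The microglial markers were measured in the same astrocyte libraries. *Sall1* was the most abundant of them by group mean in both conditions. The summed level of the markers was 182, 144, 104, 127 and 112 CPM in sham libraries 1 to 5 and 263, 215, 145, 125 and 218 CPM in FPI libraries 1 to 5. FPI libraries 1, 2 and 5 were above all sham libraries, and libraries 3 and 4 lay among them. *Gpr34* was at 0 in sham libraries 1 to 4, *Itgam* in sham libraries 2 and 3 and *Cd68* in sham library 3, and 0 of the 10 markers were at 0 in any FPI library. Between sham and FPI astrocytes the pooled counts went from 37 to 310 for *Cx3cr1* (ratio 9.57), from 21 to 272 for *Itgam* (14.8), from 38 to 63 for *Tmem119* (1.89) and from 107 to 180 for *P2ry12* (1.92). Of 8 markers tested in astrocytes edgeR called 0, 5 were higher at an unadjusted p below 0.05, and DESeq2 called 4. As a share of the microglial level, the median was 0.0539% in sham and 0.361% in FPI over the 10 markers, and 0.181% and 0.378% over the 7 members with a ratio in both conditions. *Siglec1* stood at 5.44% in FPI mice (95% counting interval 4.45 to 6.59), and at 2.77% without FPI astrocyte library 1. Of the 10 markers, 9 were lower than either value, and *Sall1* stood at 9.27%. Of the 8 border macrophage markers in FPI mice, *Mrc1*, the most abundant, stood at 2.3%, *F13a1* at 2.68%, *Lyve1* at 3.12%, *Ms4a7* at 4.56%, *Cd163* at 5.82% and *Cbr2* at 8.66%, the last with all its 12 counts in library 4, and *Pf4* and *Cd209f* had 0 counts in astrocytes. The 10 interferon reporter genes stood at 5.07% (*Mx1*) to 98.7% (*Ifit1*), with *Irf7* at 15.7% and *Ifit3* at 54.7%. Their sum was 23.6 to 50.3 CPM in sham and 84.5 to 233 CPM in FPI astrocytes, with no overlap. Of 9 tested in astrocytes 9 were higher, 8 at an unadjusted p below 0.05 (edgeR). Of these 9 edgeR called 0 and DESeq2 called 4. The summed border macrophage markers were at 0.523 to 4.42 CPM in sham and 2.62 to 6.81 CPM in FPI astrocytes, which overlap. From sham to FPI their pooled counts went from 86 to 88 for *Mrc1* (ratio 1.17), from 9 to 30 for *Cd163* (3.81) and from 1 to 25 for *F13a1* (28.5). They went from 0 to 9 for *Ms4a7*, to 12 for *Cbr2* and to 3 for *Lyve1*. How much of the members' counts in astrocyte libraries came from RNA of microglia or border macrophages was not tested. The part of interferon in these counts was not tested either.

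**Figure D4:**
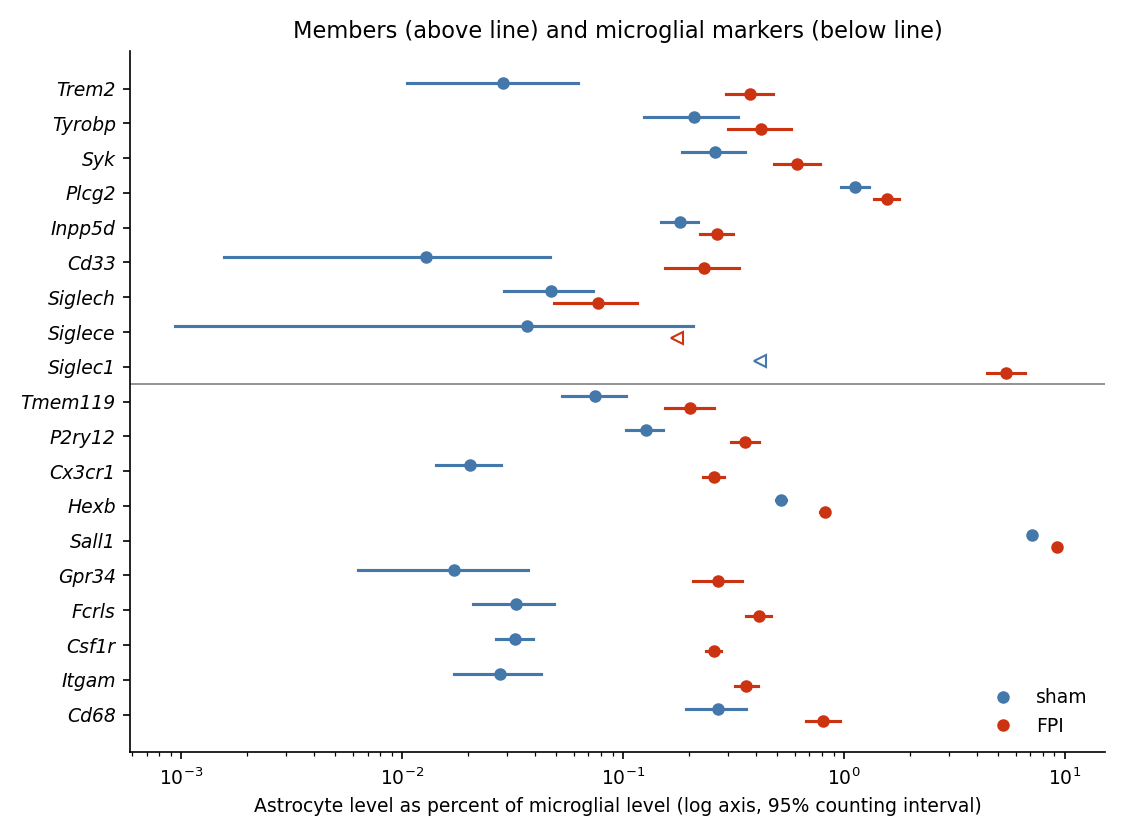
Astrocyte level as a percent of the microglial level (log axis) for the 9 members and, under the line, 10 microglial markers, sham in blue and FPI in red, with 95% counting intervals over pooled counts of 5 libraries a group and open triangles for the upper limit where astrocytes held 0 counts. Siglec1 in FPI mice stands at 5.44%, and the other members lie between 0.0129% and 1.57%.

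The difference in the FPI effect between the cell types was tested in all 20 libraries. Of the members, 3 also passed the filter on low counts in astrocytes alone, *Syk*, *Plcg2* and *Inpp5d*, and 0 of these 3 were called with edgeR, beside 0.199% of the 15077 genes tested. *Syk* had a difference, microglia minus astrocytes, of -1.26 on the log2 scale (adjusted p = 0.364, edgeR), with an unadjusted p below 0.05, and DESeq2 called it (adjusted p = 0.0814). The other 6 entered this fit through their level in microglia and had 20 counts or fewer in sham astrocytes, so calls of the difference in them are given as values that support no statement. Of these *Cd33*, which had a log2 fold change of -0.12 in microglia, was called at -3.81 (SE 0.725, 95% interval -5.315 to -2.299, adjusted p = 0.0324, edgeR). It rests on 2 counts in sham astrocytes, both from library 4, and ran from -5.77 to -3.44 with 1 library left out, beyond that interval, with adjusted p from 0.00298 to 0.0996 over 26 alternatives. *Trem2*, at -3.61 (adjusted p = 0.182, edgeR), and *Siglec1*, at -5.78 (adjusted p = 0.45, edgeR), were not called with edgeR and were called with DESeq2, at adjusted p of 0.00529 and 0.0177. For *Trem2* the adjusted p ran from 0.00529 to 0.345 over 26 alternatives, with calls also without FPI astrocyte library 3 and without the astrocyte libraries of animals that gave both cell types.

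The 5 other mouse Siglec genes listed are *Siglecf*, *Siglecg*, *Cd22*, *Mag* and *Siglec15*, and 4 of them were tested in microglia. Their median log2 fold change was 0.461, and 1 was called, *Cd22*, an ITIM receptor best known from B cells. It stood at 17.6, 14.0, 25.2, 14.8 and 31.4 CPM in sham libraries 1 to 5 and at 85.2, 59.9, 35.8, 39.4 and 44.8 CPM in FPI libraries 1 to 5. All FPI libraries were above all sham libraries, and FPI library 1 was the highest, as it was for *Siglec1*. The log2 fold change was 1.39 (SE 0.266, adjusted p = 0.00601, edgeR), called in 19 of 21 alternatives with adjusted p from 7.8e-07 to 0.28. The call was lost in the fit of all 20 libraries (adjusted p = 0.176, edgeR) and in the second name series alone, where the log2 fold change was 0.93 (adjusted p = 0.28, edgeR). The summed B cell markers were at 8.24 ± 1.73 CPM (SD, n = 5) in sham libraries and 5.99 ± 2.64 in FPI libraries.

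*Siglecf*, an ITIM receptor known from eosinophils, had means of 22.1 ± 3.88 CPM (SD, n = 5) in sham libraries and 32.3 ± 4.45 in FPI libraries, and the log2 fold change was 0.56 with SE 0.185 (adjusted p = 0.156, edgeR). All FPI libraries, from 28.8 to 37.6 CPM, were above all sham libraries, from 17.6 to 25.6 CPM, although the gene did not pass either threshold. It had 0 counts in astrocytes. *Siglecg* had a log2 fold change of 0.36 (adjusted p = 0.929, edgeR) that turned to -0.62 without FPI library 1 and to -1.03 in the second name series alone. *Mag*, a Siglec of myelin, had a log2 fold change of -0.19 in microglia (adjusted p = 0.866, edgeR) and was far higher in the astrocyte libraries, at 684 ± 659 CPM in sham and 683 ± 369 in FPI mice (SD, n = 5). *Siglec15* had 0 counts in sham and 2 in FPI microglia.

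Genes around the ITAM were counted by list, beside the 2.35% of all genes called. Of 6 further Trem family genes 2 were tested and 1 was called, *Treml2*, which rose from 15.1 ± 4.54 to 36.3 ± 10.5 CPM (SD over 5 libraries a group; log2 fold change 1.28, adjusted p = 0.00622, edgeR). Of 17 adaptors and partner receptors 10 were tested, with a median of 0.22, and 1 was called with edgeR: *Clec7a*, a receptor with an ITAM-like motif that signals through SYK, rose by 2.04 on the log2 scale (adjusted p = 6e-05, edgeR). DESeq2 called 2 there, *Clec7a* and *Fcgr4*, an Fc receptor gene with a log2 fold change of 0.78 (adjusted p = 0.17, edgeR). Of 33 genes downstream of the ITAM 32 were tested, 12 higher and 20 lower with a median of -0.036, and 1 was called, the Src family kinase gene *Fyn*. It rose from 17.3 ± 2.68 to 33.8 ± 5.48 CPM (SD, n = 5; adjusted p = 0.00505, edgeR). Of 24 ITIM receptors and phosphatases 22 were tested, 7 higher and 15 lower with a median of -0.12, and 1 was called. That was *Cd72*, an ITIM receptor, from 8.37 ± 4.08 to 31.9 ± 9.19 CPM (SD over 5 libraries a group; log2 fold change 1.94, adjusted p = 0.000598, edgeR). In the fit of all 20 libraries *Treml2* (adjusted p = 0.173, edgeR) and *Cd72* (adjusted p = 0.1, edgeR) were not called, and in the second name series alone *Treml2* (adjusted p = 0.152, edgeR) and *Fyn* (adjusted p = 0.347, edgeR) were not.

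Of 19 genes for the shedding of TREM2 and for its ligands 16 were tested, 9 higher and 7 lower with a median log2 fold change of 0.078, and edgeR called 1, *Apoe*. DESeq2 called 2, *Apoe* and *Lgals3*, whose log2 fold change was 1.67 (adjusted p = 0.151, edgeR). *Apoe*, a lipoprotein ligand of TREM2, rose from 1250 ± 768 to 7570 ± 5040 CPM (SD over 5 libraries a group; log2 fold change 2.61, SE 0.455, adjusted p = 0.00278, edgeR), and the call was lost with robust empirical Bayes (adjusted p = 0.12, edgeR). Astrocytes also express *Apoe*, at 7680 ± 1680 CPM in FPI mice, and the summed astrocyte markers in microglia were at 304 ± 47.9 CPM in sham and 421 ± 151 in FPI libraries (SD, n = 5). All 8 astrocyte markers were higher in FPI microglia, 4 at an unadjusted p below 0.05, and *Gfap* was called with edgeR (log2 fold change 2.78, adjusted p = 0.00772) and with DESeq2. The part of astrocyte RNA in the change of *Apoe* was not tested. The sialic acid that Siglecs bind is made, attached and removed by 3 further groups of genes. Of 9 genes of sialic acid synthesis 7 were tested, with a median of 0.088, of 20 sialyltransferases 12, with a median of -0.068, and of 5 genes of sialidases and their partner 3, with a median of -0.016. Of these 22 edgeR called 0 and DESeq2 called 0, and 2 had an unadjusted p below 0.05, as did 1377 of all 12143 genes, so these counts are close to those of genes at large. The most abundant in each group were *Renbp* (log2 fold change 0.17) and *Npl* (0.09), both of sialic acid turnover, the sialyltransferases *St3gal6* (-0.35) and *St3gal5* (-0.21), and the sialidase gene *Neu1* (-0.10) with *Ctsa* (0.30), the gene of its protective protein. For *St3gal6* the adjusted p was 0.134 (edgeR).

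*Trem2* and *Tyrobp* also belong to the lists of disease-associated microglia (DAM), whose second stage is known to depend on TREM2. Of the 7 genes of the first stage all were tested and all were higher, 4 of them called, with a median log2 fold change of 0.893. *Apoe*, *Fth1* (0.89), *Ctsb* (0.89) and *B2m* (0.90) were the called ones, and *Tyrobp*, at 0.34, was not. Of the 15 genes of the second stage 14 were tested, 14 were higher and 9 were called, with a median of 1.38. The 4 with the smallest p were *Axl* (2.48), *Lpl* (3.22), *Clec7a* (2.04) and *Gpnmb* (5.84), while *Trem2*, at 0.05, was among the 5 not called. *Gpnmb* was not called in the second name series alone (adjusted p = 0.109, edgeR), nor was *B2m* in the first (adjusted p = 0.108, edgeR) or in the fit of all 20 libraries (adjusted p = 0.112, edgeR). The study discussed several of these genes from these libraries, so the lists are not independent evidence of their direction.

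**Figure D5:**
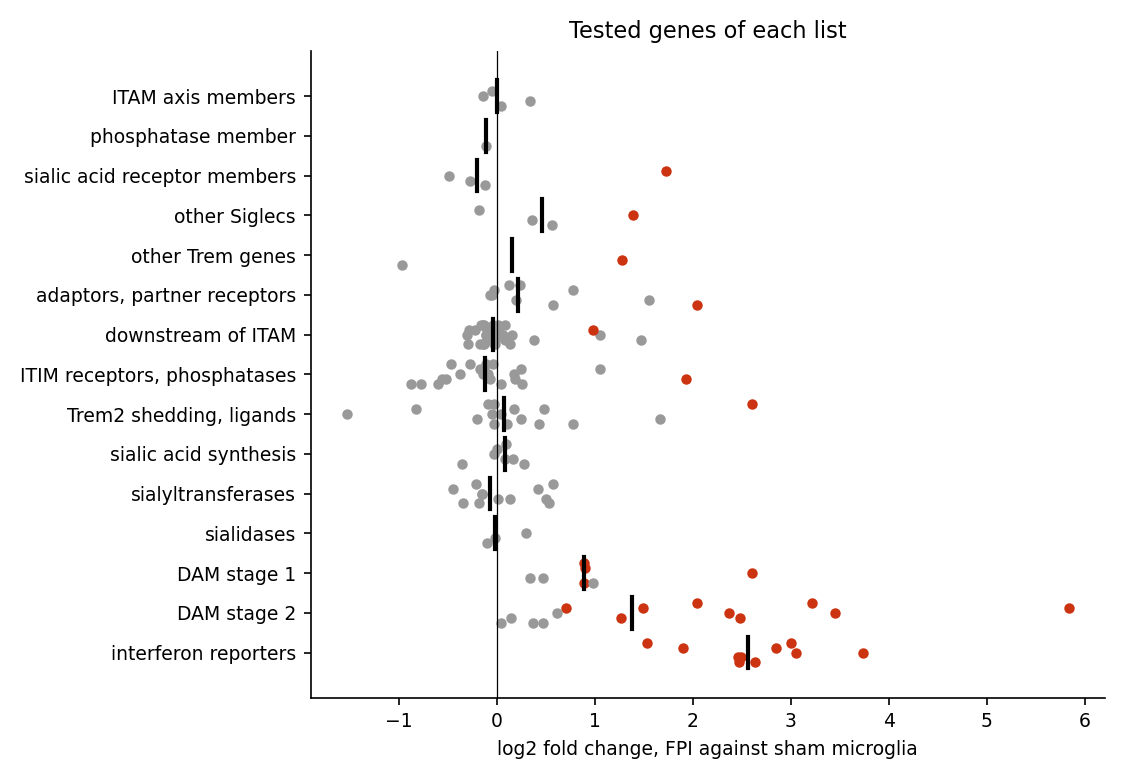
Log2 fold change of FPI against sham microglia (horizontal axis) for each tested gene of the members and of the related lists, in red where called, with a black bar at each list's median (n = 5 libraries a group). The medians of the lists around the ITAM and of sialic acid genes lie between -0.12 and 0.22, those of the DAM lists at 0.893 and 1.38, and that of the interferon reporters at 2.57.

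Over the 10 microglia libraries, after each group's mean was subtracted from log2 CPM, the genes most like *Trem2* were *Hdac1* (Pearson r 0.954), *Dnajc18* (0.916) and *Dr1* (0.91). Those most like *Siglec1* were *March1* (0.954), *Tshz1* (0.938) and *Marcksl1* (0.935). These are the highest of 12143 genes over 10 libraries. Differences between the name series were not subtracted, and the values are given as a description.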

How the data were processed

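RNA of sorted microglia and astrocytes was sequenced in 20 libraries from a stranded total RNA kit for small inputs. The authors aligned reads to GRCm38 with HISAT2 2.1.0 and list featureCounts among their tools, without its strand setting. The deposited values are whole-number counts of reads per gene, without normalization. Groups follow titles and cell type labels, also for FPI astrocyte library 5.

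For the effect of FPI, microglia and astrocytes were fitted separately with edgeR 4.0.16 under R 4.3.3 (filterByExpr, TMM, quasi-likelihood test), with Benjamini-Hochberg adjustment over all genes tested. All 20 libraries were fitted together, as independent, for the contrast of cell types and the difference in the FPI effect. The fits were tested on simulated data. Alternatives included DESeq2 1.42.0, RLE factors, other filters, robust empirical Bayes, a replicate block, the name series and leaving out each library.

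Lengths and coordinates come from GENCODE M21, which held 37607 of 39017 identifiers. Of the listed genes, 2 were matched by identifier under older symbols. The members and lists were chosen with earlier results of these data known. Named genes are the members, the other Siglecs, up to 4 called genes of smallest p in each direction per list (or the 2 of highest level where none was called), the 2 most abundant markers, and the 3 genes most like Trem2 and Siglec1. Fcgr4, Lgals3, Mx1, Bst2 and further markers named beyond these were chosen after their values were seen. Tables and figures were made in Python 3.11.15 with pandas 2.3.3, scipy 1.17.1 and matplotlib 3.10.9.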

Additional observations from a re-analysis of the deposited data

Results flagged for a closer look

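Among groups of 5 libraries, 5 of 90 had a library far from its 4 neighbours, where chance gives about 1 in 20, or 4.5. In FPI microglia library 1, Plcg2 stood at 388 CPM and the remaining libraries of the group at 344 to 352, and Siglecg stood at 7.82 CPM and the remaining ones at 0.499 to 2.31. In sham microglia, Neu1 stood at 57.6 CPM in library 5 against 38.7 to 43.8 in the others, and Axl at 23.5 CPM in library 2 against 48.1 to 55.7. In FPI astrocyte library 5, the one whose name carries a microglia suffix, the summed interferon reporter genes stood at 233 CPM against 84.5 to 110 in the others.

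The edgeR test of the difference in the FPI effect, microglia minus astrocytes, passed for 2 of the named genes. It was 2.48 on the log2 scale for Axl (adjusted p = 0.00286, edgeR). It was -3.81 for Cd33 (adjusted p = 0.0324, edgeR), which entered the fit only through microglia and had 2 counts in sham astrocytes, both in library 4, and 29 in FPI astrocytes, so the value supports no statement that the effect differed.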

How the results depend on the processing

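Over the members' log2 fold changes in the 4 comparisons, 696 of 713 alternative values kept their direction and their side of the threshold. In microglia 285 genes were called, 121 in the fit of all 20 libraries, 364 in the first name series alone (266 of them higher), 99 in the second and 177 to 423 with 1 library left out, and 255 with a block for the replicate number. Sham and FPI libraries of 1 number had r from -0.066 to 0.0924 in microglia and from -0.00927 to 0.452 in astrocytes, and the labels state no pairing, so the block is given as an alternative. Of the members 1 was called, 0 with robust empirical Bayes, 0 in the fit of all 20 libraries and 0 to 2 with 1 library left out. In astrocytes 1 gene was called, 23 with DESeq2, 9 with every gene of at least 1 count, 53 in the fit of all 20 libraries, 11 with the replicate block, and 0 to 3 with 1 library left out. It was 0 with at least 10 counts in every library, with robust empirical Bayes, with an adjusted p below 0.05 and no minimum fold change, and with FPI astrocyte libraries 2 and 5 summed. Between the cell types 9683 genes were called, 4515 with at least 10 counts in every library, where fewer genes are tested, and 9808 to 9957 with 1 library left out. For the difference in the FPI effect 30 were called, 191 with DESeq2, 1 with at least 10 counts in every library, 69 without the astrocyte libraries of animals that gave both cell types, and 21 to 48 with 1 library left out.

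The direction turned for the values that follow, none of them called. In microglia Siglecg was at -0.17 with the replicate block, -1.03 in the second name series alone, Trem2 at -0.04 in the first name series alone, and with 1 library left out Siglecg ran from -0.616 to 0.626, Trem2 from -0.047 (without FPI library 4) to 0.097 and Neu1 from -0.211 to 0.011 (without sham library 5). In astrocytes Plcg2 ran from -0.116 (without FPI library 1) to 0.627. The difference in the FPI effect was -0.12 for Siglece with DESeq2, -0.49 without the astrocyte libraries of animals that gave both cell types and -0.487 (without sham astrocyte library 4) to 1.034 with 1 library left out, where Plcg2 ran from -0.705 to 0.071 (without FPI astrocyte library 1). The cause was not tested. The level per length with the longest coding transcript, added after the data had been seen, moved by more than 1 SD in 11 of 18 values. Pooled astrocyte values of the members with 1 library left out, also added then, left their counting interval in 13 cases and stayed within it in 107. Low counts limit the astrocyte values, where 6 of 9 members had 20 counts or fewer over the sham group.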
